A study of Mus musculus with 8 samples.

Results

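The proteins of the mitochondrial ribosome were followed in *RhoA*-deleted myotubes through the mRNAs of 76 genes, those that the probe table used here names with Mrpl or Mrps followed by a number. *Mrpl53*, which the paper also lists for these cells, is not in this table and was not analysed here, so it is in none of the counts. The 76 genes were taken by name from 19505 genes with a symbol, and the family itself was chosen with earlier results of these data known. Of the 76 genes, 48 are Mrpl genes, named for the large subunit, and 28 are Mrps genes, named for the small subunit. Each gene was measured by a single row of the arrays, and all 76 rows had a mean at or above the median row (4.82 on the log2 scale). Expression was measured on 8 Affymetrix arrays of myotubes made from satellite cells of *RhoA* flox/flox mice, in which loxP sites flank exon 3 of *RhoA*, a small GTPase that acts on the actin cytoskeleton. The satellite cells were sorted from hindlimb muscle by the GFP of a Pax7-nGFP transgene and differentiated for 3 days. Mice of the study's experiments on whole muscle were 3 months old, and no separate age is stated for the cell donors. Then 4 samples received Ad-mCherry, an adenovirus that carries only the red reporter (Adeno m-cherry in the labels), and 4 received Ad-Cre-mCherry, which adds the recombinase that removes the exon (Adeno CRE m-cherry), each for 48 h. Both groups therefore share the floxed alleles, the adenovirus and mCherry, and none of the 8 arrays holds Cre in cells without floxed alleles, so deletion of *RhoA* and Cre itself cannot be told apart. The paper speaks of 3 independent cultures and the labels number 4 replicates per group. Nothing states that each array is a separate culture, so p-values measure the spread between these samples, which may be technical.

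Mitochondrial ribosomes translate the few mRNAs encoded by mitochondrial DNA, which specify core subunits of the respiratory chain and ATP synthase. Their rRNAs come from mitochondrial DNA, whereas all their proteins are encoded in the nucleus, made in the cytosol and imported. Some of these proteins have a bacterial counterpart, and others were added during the evolution of mitochondria. In skeletal muscle, a tissue with a high demand for oxidative energy, the respiratory chain depends on this machinery. Symbols do not follow structure in every case, since Mrps18a and Mrps30 belong to the large subunit and Mrps36 is now known as a component of the 2-oxoglutarate dehydrogenase complex.

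*RhoA* itself, listed as Rhoa, read 11.16, 11.39, 11.08 and 11.39 in Ad-mCherry replicates 1 to 4 and 9.99, 10.87, 10.87 and 10.23 in Ad-Cre-mCherry replicates 1 to 4, on the log2 scale of the deposited values. The highest values on the arrays lie above what log2 values of scans usually reach, and no source says whether a further step was applied, so fold changes may be stretched. Every Ad-Cre-mCherry value was below every Ad-mCherry value (log2 fold change -0.77, standard error 0.23; two-sided exact permutation p = 0.0286, the smallest that 4 arrays against 4 can give). Within replicate numbers the difference was -1.17, -0.52, -0.21 and -1.16. The row summarises probes along the transcript, and none of the sources used here says which of them lie in the deleted exon. The arrays had medians of 4.78 to 4.87 and correlated with each other at 0.962 to 0.992.

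The promoters of the ribosomal protein genes were compared first, because they show what the genes share apart from their name. RefSeq promoter windows of 300 bases in GRCm38.p6, from 250 bases before to 50 after a start site, were matched by gene for 67 of the 76 genes. Both strands were searched for the letters CCGGAA, the core bound by ETS factors such as GABP, for GCGCA and GCGC with any base between them, bound by NRF1, and for AAGATGGC, bound by YY1. NRF1, GABP and YY1 are known as regulators of nuclear genes for mitochondrial proteins. CCGGAA was found in 38 of the 67 windows (56.7%), against 19.5% of 15691 windows of genes on the arrays and 15.2% of all 27025 windows with 1 per gene. The longer CCGGAAG, which contains CCGGAA, was in 24 (35.8%, against 12.2% and 9.12%). The NRF1 letters were in 13 (19.4%, against 7.05% and 4.78%) and AAGATGGC in 12 (17.9%, against 3.32% and 2.88%). At least 1 of the 3 was present in 51 of the 67 windows (76.1%), against 26.4% and 20.5%. In 8 of the 12 genes with AAGATGGC the letters lay just after the start site, 11 to 36 bases downstream and always on the strand of the gene. A match of letters is a description of the window and not of binding.

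The next 4 windows are from RefSeq in GRCm38.p6 and written 5′ to 3′ on the strand of the gene. They are shown because each has another arrangement of these letters. Their genes were picked for log2 fold changes above the median of the 76 genes (0.43). The lowest was 0.64 in *Mrpl12* and the highest 1.07 in *Mrps23*. Capitals mark the matched letters. In *Mrps23* they are the reverse complement of CCGGAAG just after the start site. In *Mrpl12* they are the NRF1 letters read on the other strand, before the start site, and *Mrpl45* has 3 copies of them over both strands. In *Mrpl49* they are AAGATGGC after the start site.
Mrps23, chr11:88204138-88204437, plus strand: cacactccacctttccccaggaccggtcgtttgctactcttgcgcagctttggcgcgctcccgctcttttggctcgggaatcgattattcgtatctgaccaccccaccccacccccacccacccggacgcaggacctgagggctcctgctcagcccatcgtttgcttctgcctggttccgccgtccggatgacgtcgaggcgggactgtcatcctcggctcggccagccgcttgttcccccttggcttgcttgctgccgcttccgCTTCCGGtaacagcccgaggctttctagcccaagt
Mrpl12, chr11:120484387-120484686, plus strand: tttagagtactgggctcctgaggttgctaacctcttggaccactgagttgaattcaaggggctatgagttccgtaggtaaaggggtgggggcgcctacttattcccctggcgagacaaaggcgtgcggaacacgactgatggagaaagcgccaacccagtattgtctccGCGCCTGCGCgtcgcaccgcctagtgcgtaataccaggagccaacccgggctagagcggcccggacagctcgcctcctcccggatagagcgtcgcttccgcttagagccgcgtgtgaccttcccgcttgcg
Mrpl45, chr11:97315466-97315765, plus strand: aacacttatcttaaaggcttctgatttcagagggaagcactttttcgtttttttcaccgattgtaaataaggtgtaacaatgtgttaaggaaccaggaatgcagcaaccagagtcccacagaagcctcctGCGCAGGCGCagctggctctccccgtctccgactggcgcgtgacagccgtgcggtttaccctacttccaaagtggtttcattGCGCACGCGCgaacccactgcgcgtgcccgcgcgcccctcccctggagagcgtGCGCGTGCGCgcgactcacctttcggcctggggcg
Mrpl49, chr19:6057706-6058005, minus strand: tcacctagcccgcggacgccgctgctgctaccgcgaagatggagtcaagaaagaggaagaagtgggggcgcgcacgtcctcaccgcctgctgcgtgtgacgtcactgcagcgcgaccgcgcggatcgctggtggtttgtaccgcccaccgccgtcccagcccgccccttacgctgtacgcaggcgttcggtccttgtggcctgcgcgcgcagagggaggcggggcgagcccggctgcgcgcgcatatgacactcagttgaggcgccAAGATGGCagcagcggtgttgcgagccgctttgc

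The medians of genes with and without these letters lay between 0.33 and 0.45. The median log2 fold change was 0.33 in the 38 genes with CCGGAA and 0.43 in the 29 without it. It was 0.45 in the 13 genes with the NRF1 letters and 0.36 in the 54 without, and 0.44 in the 12 genes with AAGATGGC and 0.34 in the 55 without. At the thresholds of the study (1.2-fold or more, p under 0.05 before adjustment), 0 of the 12 genes with AAGATGGC and 13 of the 55 without were higher. For CCGGAA these counts were 7 of 38 and 6 of 29, and for the NRF1 letters 3 of 13 and 10 of 54. These counts are from the fit without a block for the replicate number, in which 2.92% of all genes were called higher. With that block, *Mrpl32*, *Mrpl35*, *Mrpl37*, *Mrpl49*, *Mrps11* and *Mrps12*, all with AAGATGGC, passed upward, so the count of 0 did not hold. Of all genes 6.54% passed upward with the block. None of these differences was tested.

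The mRNAs of mitochondrial ribosomal proteins were higher with Ad-Cre-mCherry in 70 of 76 genes and lower in 6 (92.1% above 0, against 49.9% of all 19505 genes and 46.8% of the 9950 brighter genes, whose rows were at or above the median). The median log2 fold change was 0.43, the middle 50% of genes lay between 0.20 and 0.64, and the range was -0.15 to 1.07. The median of all genes was 0.00. Because the family was chosen with earlier results of these data known, its shares beside those of all genes are a description and not a test. In these bulk samples, fewer cells of a type and less RNA per cell cannot be told apart. At the thresholds of the study, 1.2-fold or more with p under 0.05 before adjustment, 14 genes were higher (18.4%) and 0 were lower, where 2.92% of all genes were called higher and 3.5% lower. Of the brighter genes 4.12% were called higher. With the replicate number as a block, the fit gave 36 higher and 0 lower, against 6.54% and 8.2% of all genes. All 14 were among the 36. Among the 9950 brighter genes this fit called 1038 higher (10.4%) and 1378 lower. No gene of the 76 reached an adjusted p under 0.05 in limma after Benjamini-Hochberg adjustment over all genes, and 0.0% of all genes did, whereas 14 of the 76 and 6.42% of all genes had an unadjusted p under 0.05. The smallest adjusted p among the 76 genes was 0.680, and 0.0691 with the block, where 0.323% of all genes passed and again 0 of the 76. The wide intervals on the plot of fold changes show how the spread between arrays limits single genes.

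**Figure D1:**
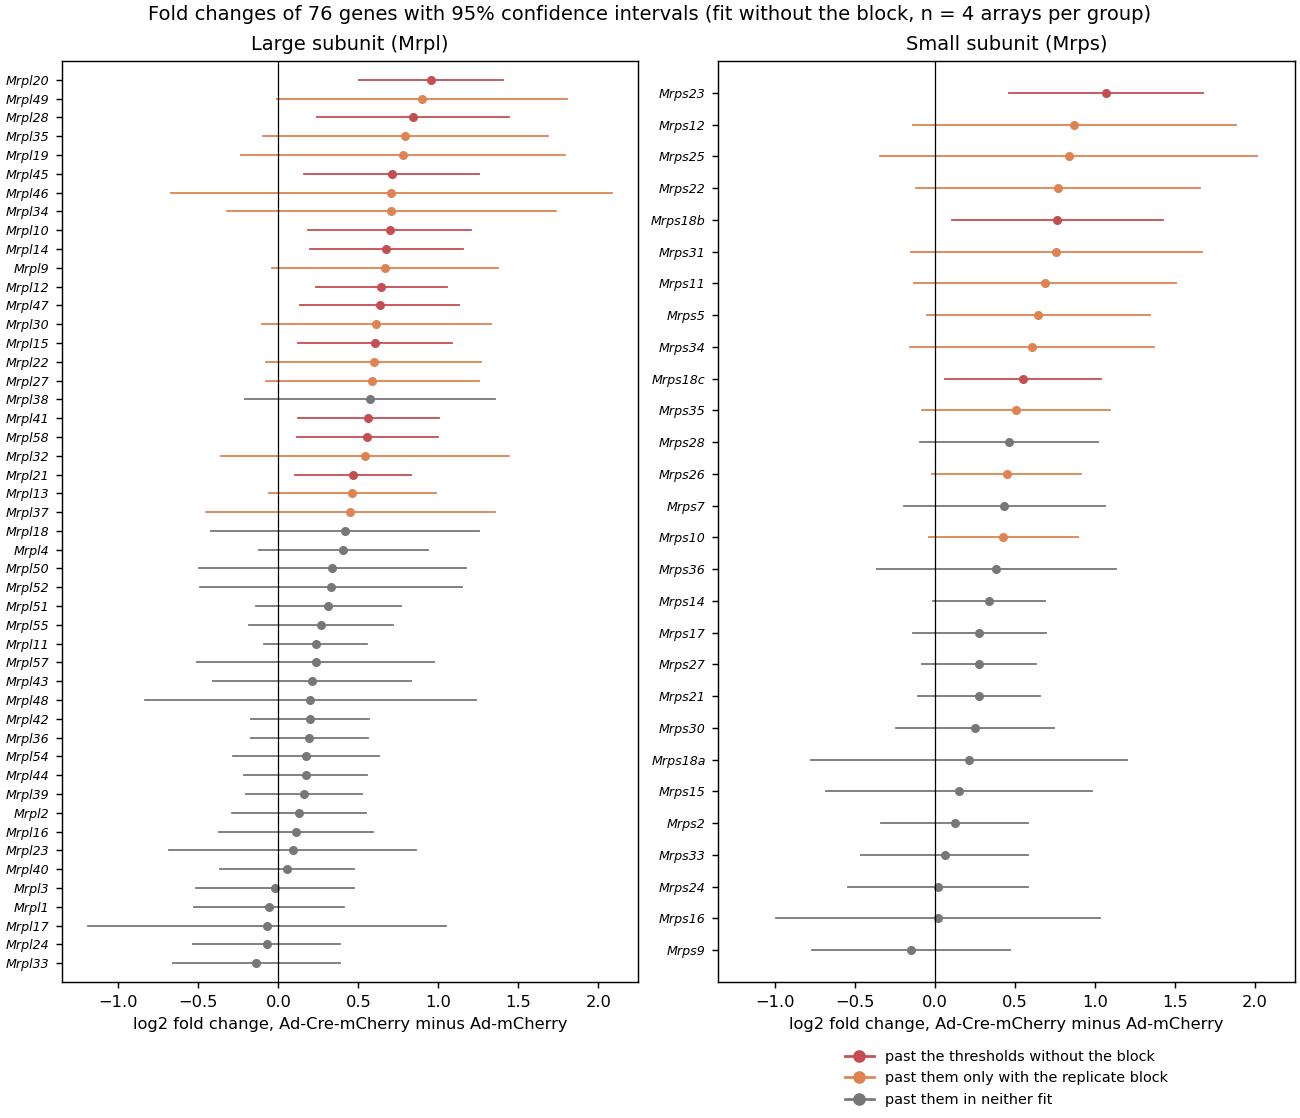
Log2 fold change of each of the 76 genes (x axis, Ad-Cre-mCherry minus Ad-mCherry) with its 95% confidence interval from the limma fit without the block, 4 arrays per group, for the large subunit on the left and the small subunit on the right. Points lie right of 0 for 70 genes, and the 14 red intervals exclude 0.

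In 11 genes all 4 Ad-Cre-mCherry values lay above all 4 Ad-mCherry values (14.5%, against 1.82% of all genes and 2.07% of the brighter genes), and in 0 genes they all lay below (1.93% of all genes). These were *Mrpl10*, *Mrpl11*, *Mrpl12*, *Mrpl20*, *Mrpl21*, *Mrpl28*, *Mrpl45*, *Mrpl47*, *Mrpl58*, *Mrps14* and *Mrps23*. Genes picked for groups that do not overlap always have a two-sided exact permutation p of 0.0286 here, so it adds nothing to the separation itself. Of the 11 genes, 9 also passed the thresholds of the study and the remaining *Mrpl11* and *Mrps14* did not.

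In the large subunit, *Mrpl20* encodes the counterpart of a bacterial protein that binds rRNA early in assembly. It read 12.51, 12.42, 12.73 and 12.96 under Ad-mCherry against 13.24, 13.90, 13.54 and 13.75 under Ad-Cre-mCherry. The lowest Ad-Cre-mCherry value, of replicate 1, was still above the highest Ad-mCherry value, of replicate 4. Its log2 fold change was 0.95 (standard error 0.20, limma adjusted p = 0.680 without and 0.0691 with the block), and 81.2% of its variance over the 8 arrays lay between the viruses.

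*Mrpl12* and *Mrpl10* encode parts of the stalk that recruits translation factors, and MRPL12 also binds the mitochondrial RNA polymerase. *Mrpl12* read 13.69, 13.91, 14.11 and 14.37 under Ad-mCherry against 14.77, 14.60, 14.52 and 14.76 under Ad-Cre-mCherry (log2 fold change 0.64, standard error 0.18). The 4 Ad-Cre-mCherry values were closely spaced and those of Ad-mCherry were spread more widely below them. *Mrpl10* read 9.10, 8.69, 9.29 and 9.47 against 10.29, 9.74, 9.73 and 9.57 (log2 fold change 0.70, standard error 0.23). Its groups came within 0.10 of each other, in replicate 4. *Mrpl11*, which encodes the neighbouring protein at the base of the stalk, differed less (log2 fold change 0.23, standard error 0.14), with values of 13.65, 13.37, 13.51 and 13.56 against 13.82, 13.71, 13.83 and 13.66.

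*Mrpl28* encodes the counterpart of bacterial L28. It read 10.03, 10.18, 11.11 and 10.99 under Ad-mCherry against 11.58, 11.37, 11.21 and 11.52 under Ad-Cre-mCherry (log2 fold change 0.84, standard error 0.27). Replicates 1 and 2 of Ad-mCherry were the low arrays, and replicates 3 and 4 lay just under the Ad-Cre-mCherry values. *Mrpl45* encodes a mitochondrial addition near the exit of the peptide tunnel that ties the ribosome to the inner membrane. It read 11.80, 12.42, 12.05 and 12.28 against 13.13, 13.29, 12.50 and 12.46 (log2 fold change 0.71, standard error 0.24), so that replicates 1 and 2 of Ad-Cre-mCherry stood well above replicates 3 and 4.

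*Mrpl58* encodes a peptidyl-tRNA hydrolase built into the large subunit, also known for the rescue of stalled ribosomes. It read 9.93, 9.44, 9.73 and 9.80 under Ad-mCherry against 10.71, 10.13, 10.22 and 10.06 under Ad-Cre-mCherry (log2 fold change 0.56, standard error 0.20). *Mrpl21* was at 0.47 (standard error 0.16) and *Mrpl47* at 0.63 (standard error 0.22) on the same scale. Both encode counterparts of bacterial proteins, L21 and L29. In *Mrpl47* the differences were uneven, at 0.10, 1.27, 0.32 and 0.84 for replicates 1 to 4.

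The other large subunit genes past the thresholds, whose groups overlapped or met, were *Mrpl14* (log2 fold change 0.68), *Mrpl41* (0.56) and *Mrpl15* (0.60). *Mrpl14* read 8.17 in replicate 4 of both groups and was otherwise lower with Ad-mCherry. *Mrpl15* read 10.25, 9.77, 10.07 and 9.79 under Ad-mCherry against 10.88, 10.71, 10.63 and 10.07 under Ad-Cre-mCherry, so only replicate 4 of Ad-Cre-mCherry fell inside the range of the other group.

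In the small subunit, *Mrps23*, a mitochondrial addition, had the highest fold change of the 76 genes. It read 8.08, 8.25, 8.36 and 8.01 under Ad-mCherry against 10, 9.24, 9.09 and 8.65 under Ad-Cre-mCherry. The Ad-mCherry arrays lay close together and every Ad-Cre-mCherry array lay above them, replicate 1 by most. The log2 fold change was 1.07 (standard error 0.27, limma adjusted p with the block 0.0806). *Mrps18b* and *Mrps18c*, of the family of bacterial S18 (the former a diverged copy counted here among the mitochondrial additions), passed the thresholds with log2 fold changes of 0.77 and 0.55, and their groups overlapped. *Mrps14*, the counterpart of bacterial S14, read 15.78, 15.48, 15.73 and 15.84 against 16.20, 15.91, 16.11 and 15.96, a small difference (log2 fold change 0.34, standard error 0.15) in which the groups did not overlap.

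**Figure D2:**
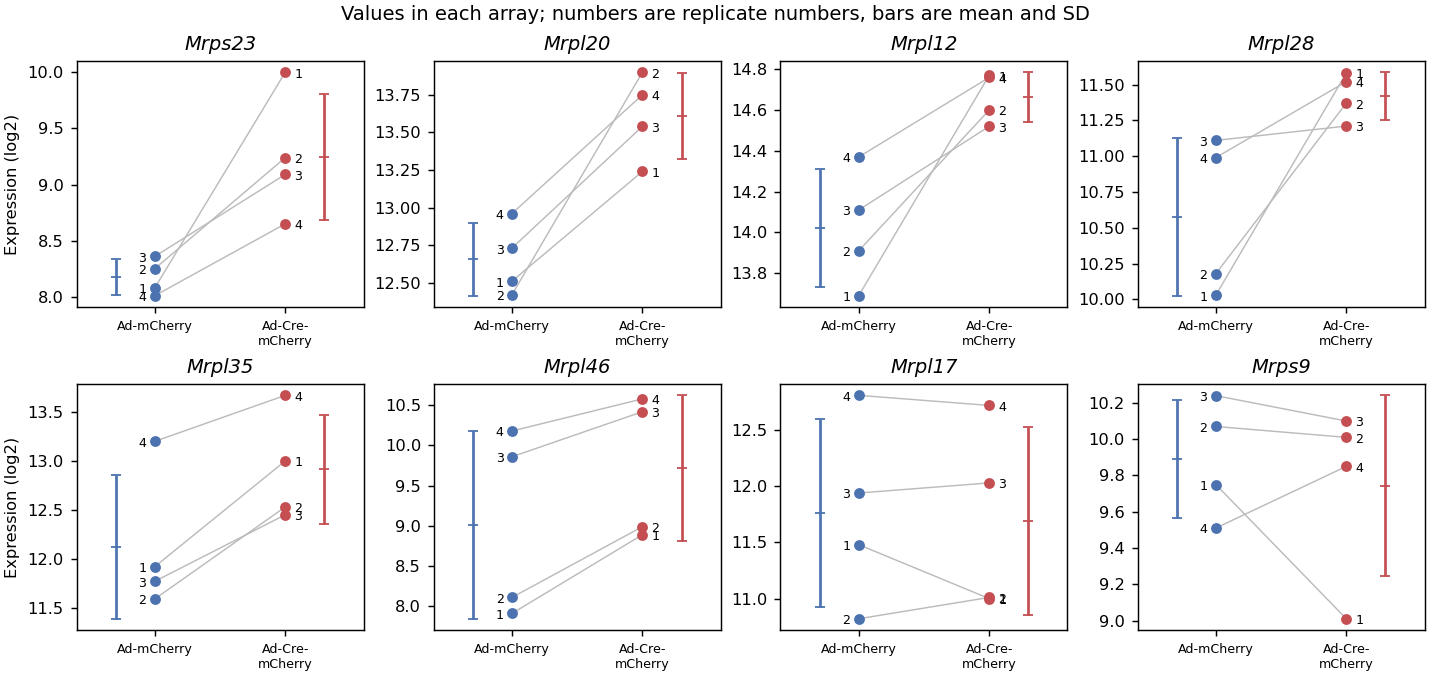
Expression (y axis, log2, a separate scale in each panel) of 8 genes in each array, with Ad-mCherry on the left and Ad-Cre-mCherry on the right of each panel. Numbers and grey lines mark replicate numbers, and bars beside the points give the mean and SD of 4 arrays. *Mrps23* and *Mrpl20* separate by virus, *Mrpl35* and *Mrpl46* shift in parallel within each number, and *Mrpl17* follows the number.

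A further 22 genes, 12 of the large and 10 of the small subunit, passed only with the replicate block. *Mrpl35* read 11.92, 11.59, 11.77 and 13.20 under Ad-mCherry against 13.00, 12.53, 12.45 and 13.67 under Ad-Cre-mCherry. Replicate 4 was the highest array of each group, and within every number the Ad-Cre-mCherry array was higher, by 1.08, 0.94, 0.68 and 0.47. Its log2 fold change was 0.79, with a standard error of 0.39 without the block and 0.18 with it (limma adjusted p with the block 0.0887). *Mrps12*, which encodes a protein of the decoding centre, had a log2 fold change of 0.87 and differences of 1.14, 1.38, 0.24 and 0.72. *Mrps31* (0.76) and *Mrpl34* (0.71) were also higher with Ad-Cre-mCherry within all 4 numbers. *Mrpl49* read 10.50, 10.46, 10.43 and 10.02 against 12.47, 11.38, 10.77 and 10.37, so that only the Ad-Cre-mCherry array of replicate 4 fell below the highest Ad-mCherry array. Its log2 fold change was 0.90, the second highest of the large subunit, and ran from 0.49 to 1.19 with a replicate or array left out. Among the others, *Mrpl9*, *Mrps5*, *Mrpl30*, *Mrpl22*, *Mrpl27*, *Mrps35*, *Mrpl13*, *Mrps26* and *Mrps10* had log2 fold changes of 0.67 down to 0.43.

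*Mrpl46* and *Mrps11* lie head to head on chromosome 7, with annotated start sites 42 bases apart. *Mrpl46* read 7.91, 8.11, 9.86 and 10.18 under Ad-mCherry against 8.89, 8.99, 10.42 and 10.58 under Ad-Cre-mCherry. *Mrps11* read 9.44, 9.46, 10.51 and 10.78 against 10.23, 10.44, 11.12 and 11.14. In both genes replicates 3 and 4 were high and replicates 1 and 2 low with either virus, and the log2 fold changes were 0.71 and 0.69. The other genes that share a start region with a protein-coding neighbour within 1000 bases did not all move with it. In all, 24 of the 76 genes had such a neighbour and 23 of the neighbours were on the arrays, 15 of them higher and 8 lower (median log2 fold change 0.16). The 15 include *Mrpl46* and *Mrps11*, each counted as the neighbour of the other, and of all genes 49.9% were above 0. Beside *Mrps12* at 0.87, the mitochondrial seryl-tRNA synthetase gene *Sars2* was at 0.01, and beside *Mrpl18* at 0.42, *Tcp1*, which encodes a subunit of the cytosolic chaperonin, was at 0.58.

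Of the 76 genes, 6 had a log2 fold change below 0, and none of them passed a threshold. They were *Mrps9* (-0.15), *Mrpl33* (-0.14), *Mrpl17* (-0.07), *Mrpl24* (-0.07), *Mrpl1* (-0.06) and *Mrpl3* (-0.02). All encode counterparts of bacterial proteins. *Mrps9* read 9.75, 10.07, 10.24 and 9.51 under Ad-mCherry against 9.01, 10.01, 10.10 and 9.85 under Ad-Cre-mCherry, and replicate 1 of Ad-Cre-mCherry was the low array. *Mrpl17* read 11.48, 10.82, 11.94 and 12.81 against 11, 11.01, 12.03 and 12.72, and 96.7% of its variance lay between replicate numbers. The difference within replicate 1 was negative in all 6 genes. Without replicate 1, *Mrpl33* stayed below 0 and the log2 fold changes of *Mrps9*, *Mrpl17*, *Mrpl24*, *Mrpl1* and *Mrpl3* turned to 0.05, 0.06, 0.00, 0.10 and 0.11.

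The large and small subunits had nearly the same median fold change. Their shares of genes past the thresholds differed without the block and were close with it, and the difference was not tested. Among the 48 Mrpl genes, 43 were higher and 5 lower (median log2 fold change 0.43), and among the 28 Mrps genes, 27 were higher and 1 lower (median 0.43). The medians differed by 0.00 on the log2 scale. At the thresholds of the study 11 Mrpl genes (22.9%) and 3 Mrps genes (10.7%) were higher, against 2.92% of all genes. Without replicate 1 these counts were 7 and 5, and the share of all genes called there was not counted. With the block the counts were 23 (47.9%) and 13 (46.4%), against 6.54% of all genes. Groups did not overlap, with Ad-Cre-mCherry higher, in 9 Mrpl genes (18.8%) and 2 Mrps genes (7.14%), against 1.82% of all genes. With Mrps18a and Mrps30 counted in the large subunit and Mrps36 left out, the medians were 0.41 in 50 genes and 0.45 in 25 genes.

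By origin, the 45 genes with a bacterial counterpart had a median log2 fold change of 0.43, with 39 higher and 6 lower, and the 28 mitochondrial additions had a median of 0.45, with all 28 higher. With each class split by subunit, the highest median, 0.68, was in the 10 additions to the small subunit. Of these 10 genes, 8 passed the thresholds with the block and 2 without it, where 6.54% and 2.92% of all genes were called higher. Besides *Mrps23* and *Mrps18b* these include *Mrps22* (0.77), *Mrps25* (0.84), *Mrps31* (0.76) and *Mrps34* (0.61), and the lowest was *Mrps33* at 0.06. The 18 additions to the large subunit had a median of 0.32, and 6 passed with the block and 3 without it. Of the genes with a bacterial counterpart, 17 of 30 in the large subunit passed with the block and 8 without it. In the small subunit 5 of 15 passed with the block and 1 without it. None of these differences was tested.

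The size of the difference varied with the replicate number. Over all 76 genes the median difference between the viruses was 0.60, 0.64, 0.30 and 0.11 on the log2 scale in replicates 1, 2, 3 and 4, and 60, 72, 62 and 48 of the 76 genes were higher with Ad-Cre-mCherry. Of all genes on the arrays, 48.2%, 49.7%, 49.3% and 49.1% were higher within these numbers. In the large subunit the medians were 0.50, 0.68, 0.28 and 0.11, with 38, 45, 41 and 29 of 48 genes higher. In the small subunit they were 0.78, 0.57, 0.30 and 0.16, with 22, 27, 21 and 19 of 28 genes higher. The small subunit median was above that of the large in replicates 1, 3 and 4 and below it in replicate 2. Within all 4 numbers, 34 genes (44.7%) were higher, 21 Mrpl and 13 Mrps, and 0 were lower, against 9.88% and 11.1% of all genes. Of the brighter genes 12.4% were higher within all 4. Replicate 4 gave the smallest difference in 40 of the 76 genes and replicate 2 the largest in 40. The *RhoA* difference given above was largest in replicates 1 and 4, whereas for the ribosomal protein genes replicate 4 had the smallest median.

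**Figure D3:**
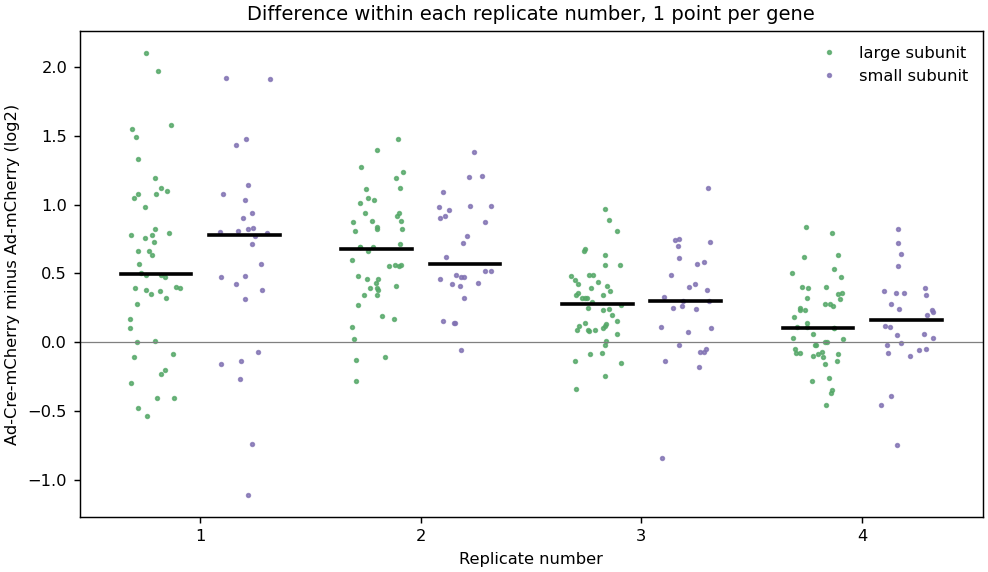
Difference between the Ad-Cre-mCherry and the Ad-mCherry array of the same replicate number (y axis, log2) for each of 48 large subunit and 28 small subunit genes, by replicate number (x axis). Black bars are medians, which run from 0.68 down to 0.11 in the large subunit and from 0.78 down to 0.16 in the small subunit.

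Measured against each gene's own mean over the 8 arrays, the median of the 76 genes was -0.23, -0.45, -0.14 and -0.02 in Ad-mCherry replicates 1 to 4 and 0.34, 0.19, 0.19 and 0.08 in Ad-Cre-mCherry replicates 1 to 4. The medians of the 2 groups did not overlap, and this also held in each subunit. In the large subunit the highest Ad-mCherry median was 0.01 and the lowest Ad-Cre-mCherry median 0.08, both of replicate 4. In the small subunit these were -0.09 and 0.09. Ad-mCherry replicate 2 was the lowest of the 8 arrays in 36 genes and Ad-Cre-mCherry replicate 1 the highest in 32. For single genes, the replicate number took a median of 44.5% of the variance and the virus 30.04%, where the medians over all genes were 52.4% and 9.64%. The number has 3 degrees of freedom and the virus 1, so the 2 shares are not compared with each other.

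**Figure D4:**
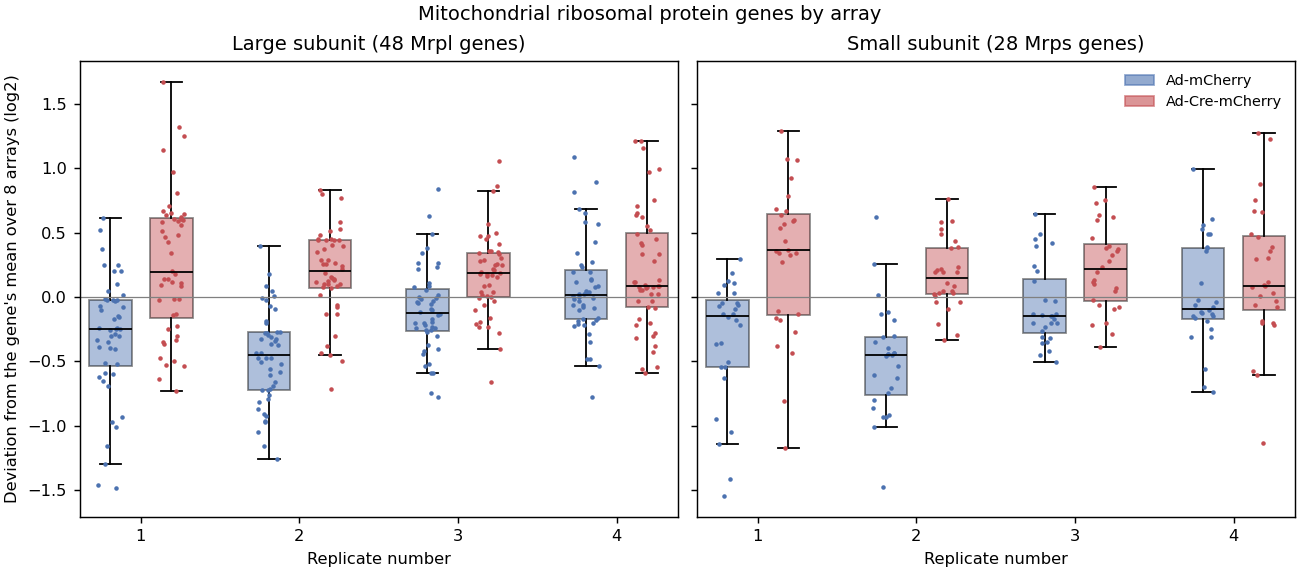
Deviation of each gene from its mean over the 8 arrays (y axis, log2) by replicate number (x axis) for the large subunit on the left and the small subunit on the right, with Ad-mCherry in blue and Ad-Cre-mCherry in red. Boxes give the median and the middle 50% of genes, whiskers reach the farthest gene within 1.5 box lengths, and every gene is a point. The medians of Ad-mCherry lie between -0.45 and 0.01 and those of Ad-Cre-mCherry between 0.08 and 0.36.

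The thresholds held for single genes to different degrees when a replicate number or an array was left out, which gives 12 settings. *Mrpl20*, *Mrps23* and *Mrpl12* passed in all 12 and *Mrpl45* in 11, whereas *Mrps18c* passed in 5. The count of 14 became 4 without replicate 2, and 23 without replicate 4. The shares of all genes called in these settings were not counted, so these counts cannot be set beside all genes. Of the 76 genes, 63 to 72 were higher in these settings, with a median log2 fold change between 0.33 and 0.52.

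Subunits of the same ribosome that carry other symbols were also higher. All 4 of those measured had a log2 fold change above 0 (median 0.55), and 2 passed the thresholds, 3 with the block. Among all genes 2.92% passed upward, and 6.54% with the block. *Chchd1* read 12.08, 11.14, 12.09 and 11.95 under Ad-mCherry against 12.92, 12.25, 12.33 and 12.59 under Ad-Cre-mCherry (log2 fold change 0.71, standard error 0.26). *Dap3*, which encodes a GTP-binding small subunit protein, was at 0.45 (standard error 0.16). In *Chchd1* and *Dap3* the groups did not overlap, with Ad-Cre-mCherry higher, as in 1.82% of all genes. *Gadd45gip1* was at 0.66 and *Ptcd3* at 0.41.

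The other lists of mitochondrial translation had medians closer to 0. For the counts below, 2.92% of all genes passed the thresholds upward and 3.5% downward, and 6.54% and 8.2% with the block. Among 28 genes for assembly of the mitoribosome and modification of its rRNA, 17 were higher and 11 lower (median log2 fold change 0.09). Of these, *C1qbp* passed the thresholds upward (0.45) and *Gtpbp10*, a GTPase of large subunit assembly, downward (-0.59), and 4 upward and 1 downward with the block. Among 16 translation factors 13 were higher, with a median of 0.20, and 0 passed without the block, 3 upward and 2 downward with it. *Lrpprc*, whose product stabilises mitochondrial mRNAs, was at 0.61, the elongation factor genes *Tsfm* and *Gfm1* were at 0.50 and 0.43, and *Mtfmt*, whose product formylates the initiator tRNA, was at -0.53. The 16 mitochondrial aminoacyl-tRNA synthetases had a median of -0.01, with 8 higher and 8 lower and 0 past the thresholds in either fit, *Yars2* at 0.35 and *Ears2* at -0.49. The 54 cytosolic ribosomal protein genes had a median of 0.01, between -0.22 and 0.34, and 0 passed in either fit.

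**Figure D5:**
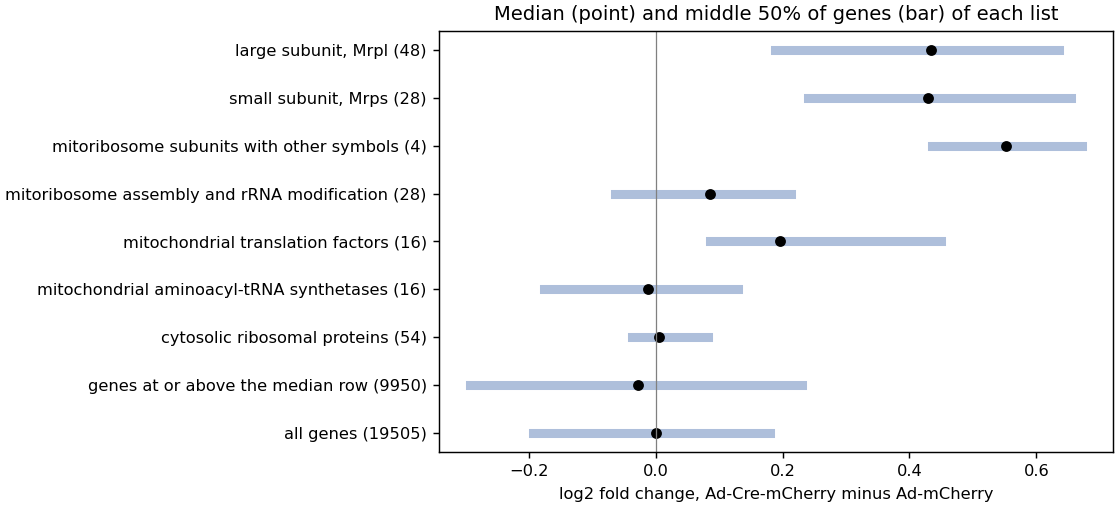
Median log2 fold change (points, x axis) and the middle 50% of genes (bars) for the large and small subunit, 5 related lists, the genes in rows at or above the median row and all genes, with the number of genes in brackets. Both subunits lie near 0.43, and cytosolic ribosomal proteins, aminoacyl-tRNA synthetases and all genes lie near 0.

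Other markers moved between the groups as well. Of 8 myotube markers 1 was higher and 7 lower (median log2 fold change -0.24), and *Myog*, a transcription factor of differentiation, and *Myh3*, the embryonic myosin heavy chain, were lower at -1.48 and -1.23 with groups that did not overlap (limma adjusted p = 0.0396 with and 0.680 without the block for both). The marker that was higher was *Ckm*, the muscle creatine kinase, at 0.62. At the thresholds of the study 0 of the 8 were higher and 2 lower. With the block 1 was higher (*Ckm*) and 3 were lower (*Ttn* at -0.65 in addition). Among all genes 2.92% were called higher and 3.5% lower, and 6.54% and 8.2% with the block. Groups without overlap and lower with Ad-Cre-mCherry were found in 1.93% of all genes. The summed level of the 8 was 20.15 to 20.40 on the log2 scale with Ad-mCherry and 19.90 to 20.24 with Ad-Cre-mCherry. *Mymk* (-0.13) and *Acta1* (-0.15) took most of it, so the sum shows little of *Myog* and *Myh3*. Summed markers of satellite cells and myoblasts (Pax7, Myf5 and Myod1) ranged from 9.07 to 11 and from 7.45 to 9.87, and Pax7 itself read at most 4.03. *Myf5* (-1.07) and *Myod1* (-0.66) passed the thresholds downward with the block and not without it. The 5 genes listed for fibroblasts summed to 10.72 to 11.76 with Ad-mCherry and to 9.30 to 10.72 with Ad-Cre-mCherry. *Tcf4* (-1.19), a gene not specific to fibroblasts, took most of this sum, so the sum does not measure fibroblasts. *Dcn*, *Lum*, *Col1a1* and *Col3a1* read at most 6.22. Markers of endothelial cells, leukocytes, adipocytes and Schwann cells read at most 5.42. The part of these markers in the levels of the ribosomal protein genes was not tested.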

How the data were processed

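RNA of 8 samples was amplified, labelled and hybridised to Affymetrix arrays. The authors made the deposited log2 values with RMA in Affymetrix Expression Console, with no version stated in the sources used here. RMA corrects background, normalizes by quantiles and summarises probes. Values ran from 2.05 to 19.89, higher than such log2 values usually reach, and whether a further step followed RMA is not stated. The paper names TRIzol and the labels a column kit. No detection calls were used. Precision is limited by the number of arrays.

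The table has 22206 rows, of which 19572 have 1 symbol, 0 have several and 2634 none here. The brightest row stood for a gene, which gave 19505 genes. All 76 genes matched RefSeq (GRCm38.p6) by identifier.

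Each gene was tested with limma 3.58.1 in R 4.3.3 (lmFit and eBayes, two-sided, Benjamini-Hochberg adjustment over 19505 genes), which was first tested on simulated data. The thresholds of the study, 1.2-fold with p under 0.05 before adjustment, were set on this fit. Counts and medians of the genes have no test. Python 3.11.15, pandas 2.3.3, numpy 2.4.6 and matplotlib 3.10.9 did the rest.

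No source says what a replicate number stands for. After removal of group means, arrays of the same number correlated at 0.516 to 0.623 and others at -0.424 to 0.128. On this basis, which is a hint from the values only, same-numbered arrays were paired in the blocked fit and in the differences within numbers. The fit without the block did not use these pairs. Standard errors, p-values and plotted intervals are from that unpaired fit unless the block is named. The blocked fit is quoted where it alters a call or count. For promoter letters it is quoted for AAGATGGC only, and the counts by letters are from the fit without it.

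The genes and lists were chosen with earlier results of these data known. Named are genes whose groups do not overlap, up to 30 past the thresholds with or without the block, those below 0, those the paper names, 2 to 4 genes per list of mitochondrial translation with the smallest p, and *RhoA*. *Mrpl18*, *Tcp1*, *Sars2*, *Mrps25*, *Mrps33*, *Mrpl32*, *Mrpl34*, *Mrpl37* and *Mrpl46* were named outside this rule or after their values were seen. The same holds for the pairs of neighbours and the genes of the marker lists. The alternatives tried were a replicate block, a further quantile normalization, median centring, bright rows only, means of rows, trend and robust eBayes, array weights, each replicate or array left out, and subunits by structure. The block with each replicate left out was added after seeing the data.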

Additional observations from a re-analysis of the deposited data

Results flagged for a closer look

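In 82 groups of 4 values (41 named genes or subunit medians, each in both groups), 4 had a single value far from the other 3, and chance alone flags about 1 in 20 groups. *Mrpl49* read 10.02 in Ad-mCherry replicate 4, where the other Ad-mCherry arrays read 10.43 to 10.50. *Mrpl3* read 9.80 in Ad-Cre-mCherry replicate 4, where the others read 10.27 to 10.31. Within the Ad-Cre-mCherry arrays, the median deviation of the large subunit genes was lowest in replicate 4, at 0.0844. Within the Ad-mCherry arrays, that of the small subunit genes was lowest in replicate 2, at -0.45.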

How the results depend on the processing

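The median log2 fold changes of all 76 genes and of each subunit, the difference between the subunits, the count above 0 and the counts of 0 lower and of 0 at the adjusted threshold moved by less than the spread between replicates (medians) or 1.5 times (counts) under all alternatives. The count of 14 genes past the thresholds of the study was 36 with the replicate block and 4 to 23 with a replicate or array left out. With the block and a replicate left out it was 28, 21, 29 and 36 without replicates 1 to 4. The 11 large subunit genes became 23 with the block, 3 to 17 with a replicate or array left out, and 16, 13, 19 and 24 with the block without replicates 1 to 4. The 3 small subunit genes became 13 with the block, 5 with array weights, 1 to 7 with a replicate or array left out, and 12, 8, 10 and 12 with the block without replicates 1 to 4. The cause of these shifts was not tested. Shares of all genes called were counted only for the fits on all arrays with and without the block. With a replicate or array left out, 20 of the 76 genes changed sign at least once, the 6 below 0 and 14 above it, with log2 fold changes of -0.15 to 0.33 on all arrays. Values of the named genes among them follow. *Mrpl3* went to 0.0278 with array weights. With a replicate or array left out, *Mrpl1* ran from -0.18 to 0.10, *Mrpl17* from -0.42 to 0.28, *Mrpl24* from -0.19 to 0.0483, *Mrpl3* from -0.18 to 0.15, *Mrpl33* from -0.26 to 0.0442 and *Mrps9* from -0.31 to 0.0942. With the block and without replicate 1, *Mrpl1* was at 0.10, *Mrpl17* at 0.0633, *Mrpl24* at 0.00333, *Mrpl3* at 0.11 and *Mrps9* at 0.0467, and without replicate 4 *Mrpl3* was at 0.0667. Of the 14 genes, *Mrpl21*, *Mrpl41* and *Mrpl58* missed the thresholds with trend and robust settings. The lack of detection calls and 4 arrays per group limit what single genes can show.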
